A study of Mus musculus with 12 samples.

Results

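The Z-disc anchors the thin filaments of neighbouring sarcomeres, and its alpha-actinin crosslinks carry the force of contraction along the fiber. Muscle LIM protein (Csrp3), the muscle ankyrin repeat proteins (MARPs: Ankrd1, Ankrd2 and Ankrd23) and the Xin repeat proteins (Xirp1 and Xirp2) sit at or near this lattice or the I-band, and several of them are known to respond to stretch or load. Actn2 is the alpha-actinin of all striated fibers and Actn3 that of fast glycolytic fibers. Myoz2 (calsarcin-1) binds alpha-actinin and calcineurin and is typical of slow fibers, and Fblim1 (migfilin) links filamin to integrin adhesions.

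The 10 genes named here were examined in the gastrocnemius and the quadriceps of 6 mice, among 36008 gene identifiers in the expression table, together with all of their events in the 4 tables of skipped exons (SE) and mutually exclusive exons (MXE). All 10 passed the filter on low values, a TPM (transcript abundance scaled for length and library size) above 5 in at least 1 library, which kept 10481 genes. Of the members, 2 had splicing events: Xirp2 with 4 and Myoz2 with 3, which made 7 of the 2423 events listed for the gastrocnemius and 7 of the 2416 listed for the quadriceps. The members were listed by function but selected on earlier flight results of these same samples, among them the TPM of Actn2, Myoz2 and Fblim1 in the gastrocnemius, the TPM of Ankrd1 in the quadriceps and the exon use of Xirp2. Differences of the members between flight and ground are therefore given as a description: the limma fit over all genes was run and its calls are counted, but a member called there is no evidence, since these libraries led to the choice. Differences between the muscles were tested, in ground mice and again in flight mice, but they share libraries with the flight results, so for Actn2, Myoz2, Fblim1, Ankrd1 and Xirp2 they are not independent of the choice.

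The mice were female, 30 weeks old at the start, and received phosphate-buffered saline injections every 2 weeks. Ground mice (M02, M03 and M08) were kept on Earth and Flight mice (M11, M12 and M20) aboard the International Space Station, both for 9 weeks in the same type of hardware. The strain is C57BL/6 in the sample labels and BALB/c in the methods of the study. One stranded library per muscle and mouse was made from left hind limb muscles of frozen carcasses, which gave 4 groups of 3: Gastrocnemius Ground, Gastrocnemius Flight, Quadriceps Ground and Quadriceps Flight. Both muscles expressed all 8 skeletal muscle fiber markers (Ckm, Acta1, Mb, Myh4, Myh1, Myh2, Tnnt3 and Pygm), with summed levels of 69361 to 91967 TPM per library. The TPM table carries no read depth, and its values sum to between 923295 and 966638 per library. Genes with a TPM above 0 numbered 18172 in the quadriceps library of M08 and 20291 to 21265 in every other library, and the quadriceps library of M02 held 1028 TPM of the 10 slow fiber markers against 2488 and 2541 in the other ground quadriceps.

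The genes lie on 8 chromosomes (GRCm38, GENCODE). Actn3 at chr19:4861216-4877909, Ankrd1 at chr19:36111961-36120099 and Ankrd2 at chr19:42036000-42045110 share chromosome 19, and Ankrd23 lies at chr1:36530188-36536883, Xirp2 at chr2:67446002-67526614, Myoz2 at chr3:123006206-123035015 and Fblim1 at chr4:141576062-141606096. Csrp3 lies at chr7:48830398-48848033, Xirp1 at chr9:120013755-120023598 and Actn2 at chr13:12269426-12340760. Ankrd2 and Xirp2 are on the plus strand and the others on the minus strand.

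Xirp2 is the member whose transcript structure the splicing tables cover best. Its exon 7 at chr2:67507909-67517173 (GRCm38, plus strand) spans 9265 bases, all coding, or 81.6% of the coding bases of the annotated transcript Xirp2-201, and holds the Xin repeats. The MXE event at the end of the gene sets the junctions of exon 7 against those of exon 8 at chr2:67519220-67519353. The first bases of exon 7 and the part of exon 8 up to the stop codon (capitals) that the annotated transcript Xirp2-202 uses are shown because the reads diverge here.
Xirp2 exon 7, chr2:67507909-67507968: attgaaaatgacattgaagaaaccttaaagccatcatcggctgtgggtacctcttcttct
Xirp2 exon 8, chr2:67519220-67519314: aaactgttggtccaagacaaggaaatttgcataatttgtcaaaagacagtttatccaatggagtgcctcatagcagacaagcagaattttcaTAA

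Read after exon 7, exon 8 of 134 bases ended at the capital stop codon in Xirp2-202, whereas Xirp2-201 starts the same exon 16 bases later and reads through to exon 9. When exon 6 is joined directly to the 134-base exon 8 and then to exon 9, no stop codon came before the annotated end in exon 9, and the reading frame was 2106 bases long with its stop against 11355 bases in Xirp2-201. No such transcript is annotated, and the junction reads do not show which exons a whole transcript joins. Both annotated transcripts hold both exons, so reads across the exon 8 to exon 9 junction can also come from forms with exon 7, and the percent spliced in (PSI, the share of exon 7 among length-scaled junction reads of both) compares junctions and not whole transcripts.

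The other MXE events lie at the start of the gene. They set exon 2 at chr2:67476718-67476866, with the annotated start codon, against exon 4 at chr2:67505034-67505123, and exon 3 at chr2:67482246-67482383 against exon 5 at chr2:67505503-67505575. An annotated coding transcript holds exons 2 to 6 together. Reads across the exon 4 to 5 and exon 5 to 6 junctions can therefore also come from forms with exons 2 and 3. PSI of these events, too, compares junctions and is no share of transcripts that use exon 2 or exon 3. Exon 3 is a whole number of codons in length and exon 5 is not.
Xirp2 exon 3 (138 bases): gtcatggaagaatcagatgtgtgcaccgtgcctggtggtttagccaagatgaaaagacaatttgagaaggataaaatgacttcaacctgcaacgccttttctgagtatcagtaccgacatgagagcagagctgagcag
Xirp2 exon 5 (73 bases): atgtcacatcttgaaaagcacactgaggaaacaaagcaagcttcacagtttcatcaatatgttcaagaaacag

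In Myoz2, on the minus strand of chromosome 3, 2 events concern an exon of 172 bases at chr3:123033192-123033363 that is annotated only in Myoz2-203, a transcript of the class nonsense-mediated decay (NMD). Its reading frame ends after 35 bases, at the stop codon in capitals, so this NMD exon is shown up to that codon.
Myoz2 NMD exon, chr3:123033326-123033363: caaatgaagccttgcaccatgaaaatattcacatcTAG

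The 10 genes kept much the same order of level across the groups. Actn3 was the highest in each group, with means from 2327 ± 53.5 TPM (SD, n = 3) in the ground gastrocnemius to 3607 ± 93.4 TPM in the flight quadriceps. Ankrd23, Xirp2 and Actn2 followed in this order in all 4 groups, and no library of one reached the range of the next. Myoz2, Xirp1, Ankrd2 and Csrp3 held the middle at group means of 29.6 to 105 TPM, and their ranges overlapped between some neighbours in every group. Fblim1 and Ankrd1 were lowest, with group means of 7.997 to 16.3 TPM and 2.30 to 6.73 TPM, and they overlapped with each other only in the ground gastrocnemius.

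**Figure D1:**
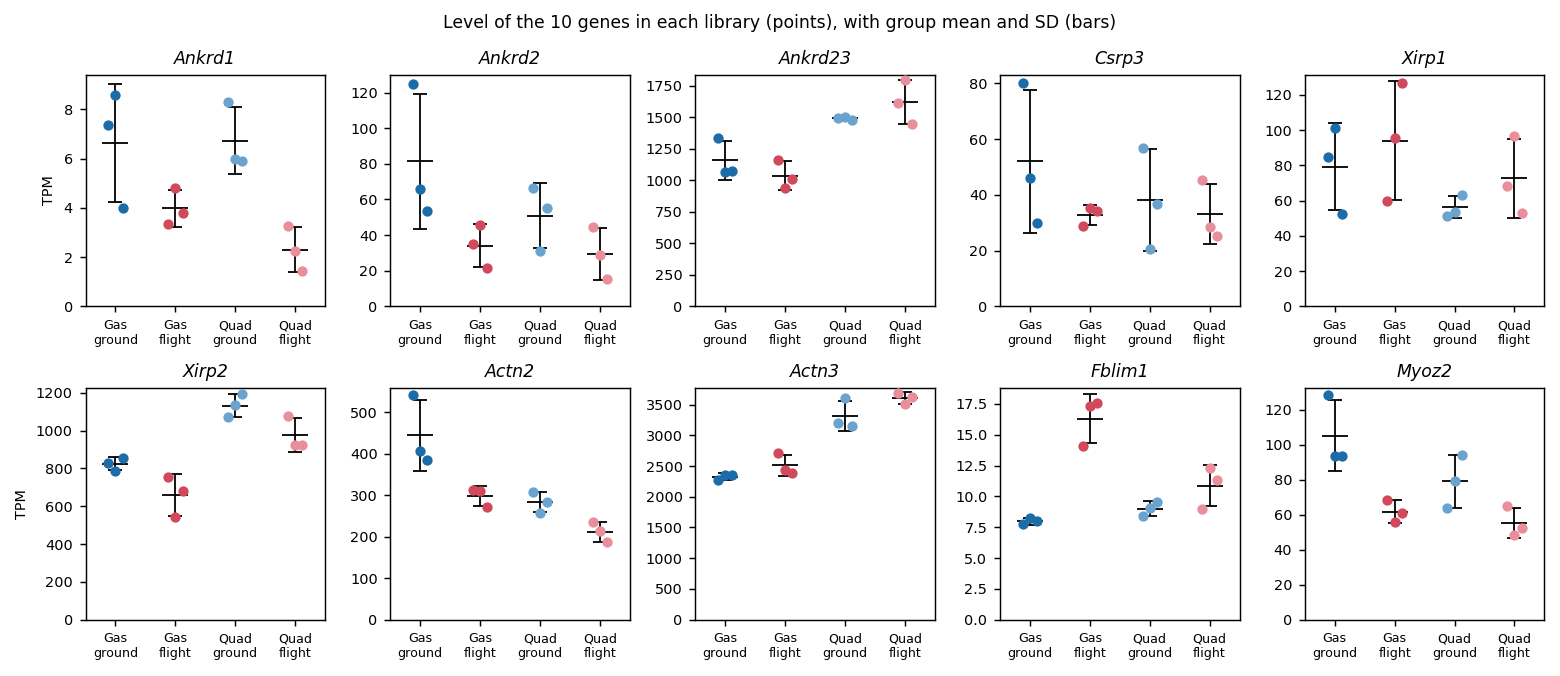
TPM of each of the 10 genes in the 12 libraries, 1 panel per gene with its own axis from 0, for gastrocnemius (Gas) and quadriceps (Quad) of ground and flight mice. Points are libraries and bars are the group mean with its SD (n = 3). The 3 Fblim1 values of the flight gastrocnemius (14.1 to 17.6 TPM) lie above all others, and Actn2 is lower in flight than in ground libraries in both muscles.

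Between the muscles, the alpha-actinins differed in opposite directions. In ground mice, Actn2 was at 541, 406 and 385 TPM in the gastrocnemius and at 308, 258 and 284 TPM in the quadriceps of M02, M03 and M08. Each gastrocnemius value was above each quadriceps value. The log2 difference was 0.63 ± 0.14 (SE), with a limma adjusted p of 0.0368 over all genes kept. It rests in part on the ground gastrocnemius libraries that, against flight, led to the choice of Actn2, so this call is not independent of the choice. This was the only member called in ground mice at adjusted p under 0.05 and more than 1.5-fold, 1 of 10 members beside 2.21% of all genes kept.

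In flight mice, Actn2 was at 313, 310 and 271 TPM in the gastrocnemius and at 235, 213 and 186 TPM in the quadriceps of M11, M12 and M20. The groups again did not overlap, and the log2 difference was 0.50 ± 0.11 with a limma adjusted p of 0.0621. With mouse as a replicate block, which pairs the muscles of each animal, the limma adjusted p was 0.0483. The difference was still short of the fold required for a call. The call in ground mice was lost when any 1 of the 6 libraries was left out, with log2 differences of 0.48 to 0.73. The library of M02 was the highest of the ground gastrocnemius, and without it the difference was 0.48.

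Actn3 ran the other way. It was at 2265, 2356 and 2360 TPM in the gastrocnemius and at 3204, 3602 and 3158 TPM in the quadriceps of M02, M03 and M08, with no overlap. In flight mice, the gastrocnemius had 2710, 2431 and 2391 TPM and the quadriceps 3696, 3509 and 3616 TPM of M11, M12 and M20. The log2 differences of -0.51 ± 0.07 and -0.52 ± 0.08 had limma adjusted p-values of 0.0112 and 0.0309, under the threshold in both sets of mice, but the ratios of 0.702 and 0.695 were short of the fold required for a call. Actn3 over Actn2, a ratio within a library, ran from 4.19 to 6.13 in the ground gastrocnemius, from 7.84 to 8.83 in the flight gastrocnemius, from 10.4 to 13.96 in the ground quadriceps and from 15.7 to 19.4 in the flight quadriceps. The 4 ranges did not overlap. Actn2 was chosen on its flight TPM in the gastrocnemius, so the separation of flight from ground here is not independent of the choice.

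Expressed as a share of alpha-actinin TPM, Actn2 made up 16.0% ± 2.86 (SD, n = 3) in the ground gastrocnemius, 10.6% ± 0.609 in the flight gastrocnemius, 7.90% ± 1.09 in the ground quadriceps and 5.54% ± 0.563 in the flight quadriceps. The sum of both genes was 2771 ± 31.9 TPM in the ground and 2809 ± 190 TPM in the flight gastrocnemius, and 3605 ± 224 TPM in the ground and 3818 ± 105 TPM in the flight quadriceps. The share therefore separated the groups in each muscle while the ground and flight ranges of the sum overlapped. This describes libraries on which Actn2 was chosen and is no evidence. How often such shares separate for other pairs of genes was not examined.

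**Figure D2:**
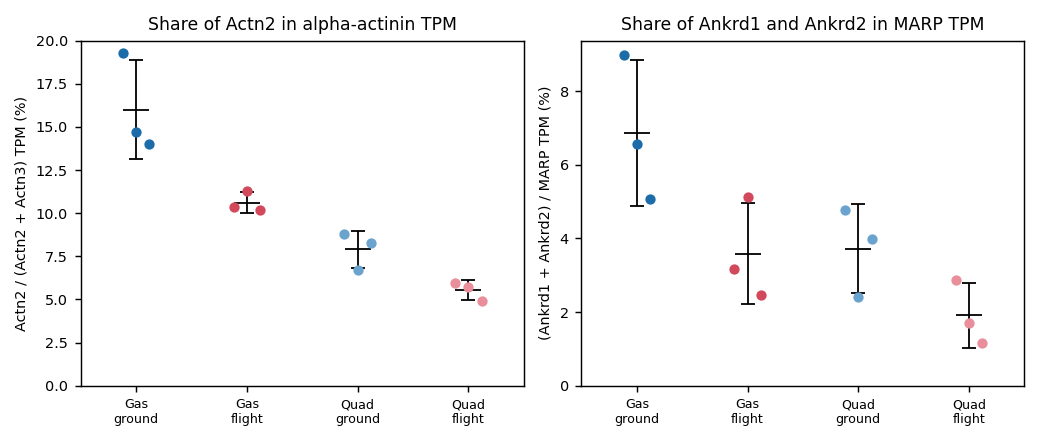
Left, Actn2 as a percentage of the summed TPM of Actn2 and Actn3, and right, Ankrd1 and Ankrd2 together as a percentage of the summed TPM of the 3 MARP genes, in each of the 12 libraries (points), with group mean and SD (bars, n = 3). The Actn2 share lies at 14.02% to 19.3% in the ground gastrocnemius and at 4.90% to 5.98% in the flight quadriceps.

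Ankrd23, Xirp2 and Actn3 had every gastrocnemius library below every quadriceps library, in both sets of mice, except that Ankrd23 overlapped in ground mice after scaling by the median ratio (1073 to 1429 against 1412 to 1450.0). Ankrd23, the MARP of highest level, stood at 1339, 1065 and 1075 TPM in the gastrocnemius and 1495.2, 1504 and 1479 TPM in the quadriceps of M02, M03 and M08. In flight mice it stood at 1165, 936 and 1010 TPM against 1613, 1796 and 1450 TPM in M11, M12 and M20. Its log2 difference was -0.37 ± 0.09 in ground mice, with a limma adjusted p of 0.0535, and -0.64 ± 0.11 in flight mice, with a limma adjusted p of 0.0411. The flight value was the only member called there, 1 of 10 beside 1.66% of all genes kept. With all 12 libraries in 1 fit, which leaves out the pairing, the limma adjusted p was 0.00476 and the call was kept. With mouse as a replicate block, which uses the pairing of both muscles of each animal, the limma adjusted p was 0.0536 and the call was lost. It was also lost without any 1 of 5 of the 6 libraries, the exception being the gastrocnemius of M11, and after scaling by the median ratio, with log2 differences of -0.57 to -0.72 and of -0.52.

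Xirp2, the larger Xin repeat gene, was at 830, 787 and 857 TPM in the ground gastrocnemius and at 1069, 1133 and 1192 TPM in the ground quadriceps of M02, M03 and M08. In flight mice it was at 756, 541 and 680 TPM against 1079, 923 and 925 TPM. The log2 difference was -0.46 ± 0.06 in ground mice, with a limma adjusted p of 0.0130 but below the fold required, and -0.57 ± 0.13 in flight mice, with a limma adjusted p of 0.0688. With mouse as a replicate block, the limma adjusted p in flight mice was 0.0497, again below the fold required. The related Xirp1 did not follow it, with 52.3 to 101 TPM in the gastrocnemius and 51.3 to 63.2 TPM in the quadriceps of ground mice and a log2 difference of 0.45 (95% interval -0.09 to 0.98).

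On the deposited TPM, the intervals of the muscle difference included 0 in ground mice for the other members. Myoz2 had a log2 difference of 0.41 (95% interval -0.0013 to 0.82) in ground and 0.17 (-0.15 to 0.48) in flight mice, Ankrd2 had 0.64 (-0.23 to 1.51) and 0.26 (-0.66 to 1.17), and Csrp3 had 0.44 (-0.59 to 1.47) and 0.03 (-0.46 to 0.52). The ground differences of Ankrd2 and Csrp3 leaned on the gastrocnemius library of M02, the highest of its group for both genes, and were smaller without it. Ankrd1 was at -0.06 (-0.67 to 0.56) in ground mice, a sign that turned to 0.05 after scaling by the median ratio, and at 0.62 (0.06 to 1.17) in flight mice with a limma adjusted p of 0.169. This flight value of Ankrd1 rests on the flight quadriceps libraries that led to its choice, and on low TPM. Fblim1 was at -0.15 ± 0.10 in ground mice, or -0.041 after scaling by the median ratio, and at 0.55 ± 0.15 in flight mice, the latter resting on the flight gastrocnemius libraries that led to its choice. The groups did not overlap for 5 of 10 members in ground mice, where this held for 33.8% of all genes kept: 1 member was higher in the gastrocnemius (5.52% of all genes) and 4 were lower (28.3%). In flight mice they did not overlap for 6 of 10, beside 30.4% of all genes, with 3 higher (6.0%) and 3 lower (24.4%). On the deposited TPM, Fblim1 was the only member whose muscles separated in opposite directions in ground and flight mice, which 0.277% of all genes did. After scaling by the median ratio the ground muscles overlapped for Fblim1, at 8.24 to 8.49 in the gastrocnemius and 8.07 to 9.14 in the quadriceps, and no member separated in opposite directions. Ankrd23 also overlapped in ground mice on that scale, whereas Myoz2 separated, at 94.1 to 137 against 61.1 to 90.0. This left Actn2 and Myoz2 higher, and Xirp2 and Actn3 lower, in the ground gastrocnemius.

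**Figure D3:**
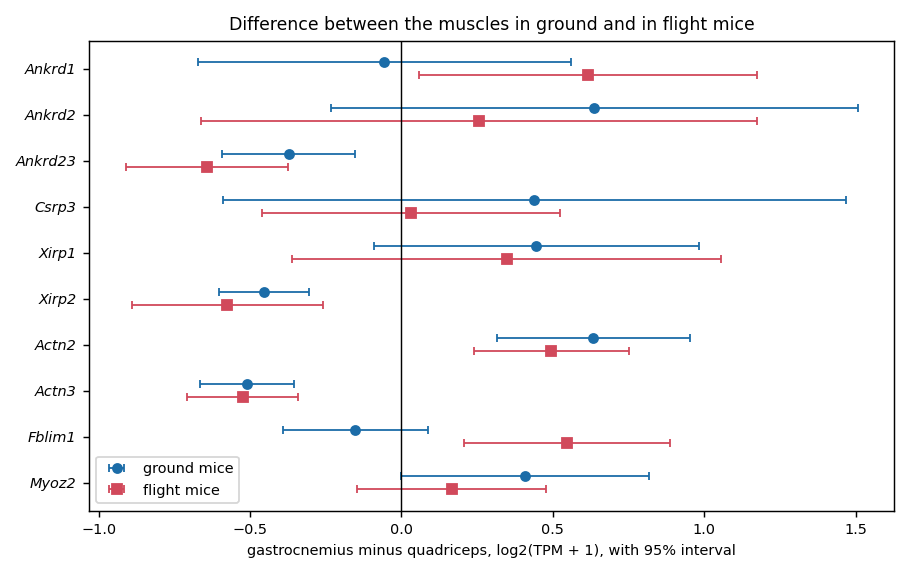
Difference between gastrocnemius and quadriceps in log2(TPM + 1) for each gene, in ground mice (circles) and flight mice (squares), with the 95% interval of the limma fit (n = 3 libraries per group). Ankrd23, Xirp2 and Actn3 lie below 0 and Actn2 above 0 in both sets, and Fblim1 is at -0.15 in ground and 0.55 in flight mice.

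All muscle differences depend on how the muscles are scaled to each other. Of the 232 genes called between the muscles in ground mice, 61 were higher and 171 lower in the gastrocnemius, and the median of all genes was -0.12 on the log2 scale. After scaling by the median ratio, which puts that median near 0 in both sets of mice, 58 were higher and 51 lower. In flight mice the split was 43 higher and 131 lower at a median of -0.11, and 31 higher and 25 lower after that scaling. Relative to that median, Ankrd23, Xirp2 and Actn3 had log2 differences of -0.25, -0.33 and -0.39 in ground mice (limma adjusted p = 0.225, 0.0718 and 0.0447), and Actn2 had 0.76 (limma adjusted p = 0.0492). In flight mice Actn3 had -0.40 and Actn2 0.62 after that scaling (limma adjusted p = 0.0666 and 0.0713). The intervals of Myoz2 and Xirp1 then excluded 0 in ground mice, at 0.53 ± 0.18 and 0.57 ± 0.22 (limma adjusted p = 0.157 and 0.191). That of Myoz2 excluded 0 in flight mice too, at 0.29 ± 0.12 (limma adjusted p = 0.233).

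Other genes of the same structures were read from lists. Of 28 other structural Z-disc genes kept, 1 was called lower in the gastrocnemius of ground mice and 1 in flight mice: Capza2, a capping protein subunit at the barbed end of the thin filament, had a log2 difference of -0.60 (limma adjusted p = 0.0293), and Sorbs2, a Z-disc adaptor, had one of -0.72 (limma adjusted p = 0.0322). Their list medians were -0.07 and -0.15, close to the medians of all genes. Of 18 stretch and load response genes, Fhl1, a LIM protein of the I-band, was called higher in the gastrocnemius in both sets, by 0.95 ± 0.17 in ground mice (limma adjusted p = 0.0244) and by 0.82 ± 0.10 in flight mice (limma adjusted p = 0.0237). Smpx, a small muscle protein linked to stretch, was called lower in flight mice, at -0.93 (limma adjusted p = 0.0197). All calls in these lists and in the fast and slow fiber lists below were lost without the filter on low values. Fewer of these genes were called in ground mice after scaling by the median ratio. None of 16 filamin and integrin adhesion genes and none of 10 genes of the YAP, TEAD and SRF axis was called in either set (6 and 5 adhesion genes and 0 and 1 genes of that axis had an unadjusted limma p under 0.05 in ground and flight mice).

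Most fast fiber genes measured were lower in the gastrocnemius, as Actn3 was. Of 11, 8 had a limma adjusted p under 0.05 in ground mice, all lower in the gastrocnemius, and 4 in flight mice, again all lower. At an unadjusted p under 0.05 there were 9 in ground mice, all lower, and 10 in flight mice, of which 8 were lower and 2, Myh1 (0.35) and Myh2 (0.26), higher. Most were short of the fold required, such as the fast myosin heavy chain Myh4 at -0.49 and the fast troponins Tnni2 at -0.55 and Tnnt3 at -0.53 in ground mice, whereas Myh1 and Myh2 had differences of 0.25 and 0.24 in these mice. Mylpf (fast myosin regulatory light chain) was called lower in the gastrocnemius at 8946 ± 284 against 16441 ± 2239 TPM in ground mice (limma adjusted p = 0.00994) and was called lower in flight mice too (limma adjusted p = 0.0127), and Pvalb (parvalbumin) was called lower in ground mice (limma adjusted p = 0.0112) and had a limma adjusted p of 0.0598 in flight mice. Among 10 slow fiber genes, none was called in ground mice (0 at an unadjusted limma p under 0.05) and Atp2a2, the slow fiber calcium pump, was called lower in flight mice, at -0.71 (limma adjusted p = 0.0281). In flight mice 4 slow fiber genes had an unadjusted limma p under 0.05, all lower in the gastrocnemius: Atp2a2, Tpm3 (-0.45), Myl2 (-0.53) and Myh7 (-0.32). Markers of nerve and Schwann cells were higher in the gastrocnemius, with 3 of 4 called in each set and summed levels of 136 to 298 TPM against 52.8 to 84.7 TPM, and adipocyte markers summed to 41.5 to 95.2 TPM in the ground gastrocnemius and to 89.3 to 209 TPM in the ground quadriceps. In flight mice they summed to 35.5 to 83.0 and 45.9 to 77.4 TPM. The smooth muscle markers Acta2 and Myh11 had differences of 0.56 and 0.38 in ground mice and of 0.53 and 0.39 in flight mice. Neither was called in either set (Acta2 in ground mice had a limma adjusted p of 0.0261 but was short of the fold required). The part of these nerve, adipocyte and smooth muscle markers in the muscle differences of the members was not tested.

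With flight, 7 of 10 members were lower in the gastrocnemius and 6 of 10 in the quadriceps, with median log2 differences of -0.44 and -0.18 beside medians of 0.02 and 0.01 over all genes kept. Of the 10, 1 was called in the gastrocnemius, where 0.229% of all genes were called: Fblim1, which had been chosen on these libraries and whose call was lost without any 1 of them except the flight library of M11, and none in the quadriceps, where 0.0286% were (4 members had an unadjusted limma p under 0.05). The flight and ground groups did not overlap for 6 members in the gastrocnemius, beside 21.0% of all genes, with 2 higher in flight (12.5% of all genes) and 4 lower (8.55%). In the quadriceps they did not overlap for 2, beside 17.4%, with 0 higher (9.24%) and 2 lower (8.12%). Nothing is read from these counts, since the members were chosen with them in view. All 5 adipocyte markers had lower means in the flight than in the ground quadriceps, with a median log2 difference of -1.09 (0 called, 5 at an unadjusted limma p under 0.05). Their part in the quadriceps differences of the members was not tested. In bulk muscle, fewer fibers of a type and less RNA per fiber cannot be told apart.

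Among the MARPs, Ankrd2, which is typical of slow fibers, was at 125, 66.1 and 53.3 TPM in the ground gastrocnemius and at 34.8, 45.7 and 21.7 TPM in the flight gastrocnemius. The flight values lay below all ground values, with a log2 difference of -1.20 ± 0.35 (SE). In the quadriceps it was at 66.6, 31.0 and 55.3 TPM on the ground and 44.5, 28.7 and 15.5 TPM in flight, and the groups overlapped, with a difference of -0.82 ± 0.41. The libraries of a group spread widely, and the gastrocnemius of M02 had the most of all 12. The quadriceps difference leaned on the flight library of M20, at 15.5 TPM, and was smaller without it.

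Ankrd1, the cardiac ankyrin repeat protein, was low throughout. In the quadriceps it was at 8.29, 5.99 and 5.90 TPM on the ground and at 3.24, 2.25 and 1.42 TPM in flight, with no overlap and a log2 difference of -1.25 ± 0.25. In the gastrocnemius it was at 7.35, 8.59 and 3.97 TPM on the ground and at 3.35, 4.79 and 3.77 TPM in flight, where the lowest ground library, M08, lay inside the flight range, and the difference was -0.57 ± 0.25. At such levels the size depended on the pseudocount of 1 TPM added before taking logs, and the quadriceps difference was -1.56 with 0.1 TPM and -0.68 with 5 TPM.

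Ankrd23 differed little with flight. Its log2 difference with flight was -0.16 ± 0.12 for gastrocnemius and 0.11 ± 0.09 for quadriceps, with overlapping groups in both. Because Ankrd23 held 91.0% to 98.8% of MARP TPM in every library, the MARP sum moved little, from 1248 ± 194 to 1075 ± 113 TPM in the gastrocnemius and from 1550 ± 17.1 to 1652 ± 181 TPM in the quadriceps. Ankrd1 and Ankrd2 together made up 6.86% ± 1.97 on the ground and 3.59% ± 1.38 in flight in the gastrocnemius, and 3.72% ± 1.21 and 1.91% ± 0.879 in the quadriceps, with ranges that overlapped in each muscle.

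Csrp3, or muscle LIM protein, varied widely between ground mice. It was at 80.2, 46.1 and 29.9 TPM in the ground gastrocnemius and at 28.9, 35.4 and 34.4 TPM in flight, and at 56.9, 20.6 and 36.9 TPM in the ground quadriceps and 45.3, 28.6 and 25.2 TPM in flight. The groups overlapped in both muscles, with log2 differences of -0.54 ± 0.31 and -0.13 ± 0.37. Without the ground library of M02 they were -0.18 and 0.21.

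Of the Xin repeat genes, Xirp2 was lower in the flight gastrocnemius, with no overlap and a log2 difference of -0.34 ± 0.12, and was at -0.22 ± 0.08 in the quadriceps, where 1 flight library (M11 at 1079 TPM) lay inside the ground range. The gastrocnemius difference leaned on the flight library of M12, the lowest, and was smaller without it. Xirp1 was at 84.5, 101 and 52.3 TPM in the ground and 59.7, 95.5 and 127 TPM in the flight gastrocnemius. Its differences of 0.23 ± 0.31 and 0.33 ± 0.21 lay within the spread of overlapping groups, and the first was -0.02 without the flight library of M20 and -0.04 without the ground library of M08. The second, in the quadriceps, was smaller without the highest flight library, at 96.6 TPM.

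Actn2 was lower in flight in both muscles without overlap, by log2 differences of -0.56 ± 0.14 and -0.42 ± 0.11. Actn3 was at 0.11 ± 0.07 and 0.12 ± 0.07, with no overlap in the gastrocnemius only. Myoz2 was at 128, 93.4 and 93.6 TPM in the ground gastrocnemius and at 68.5, 55.8 and 60.9 TPM in flight, with no overlap and a difference of -0.75 ± 0.14. In the quadriceps it was at 63.7, 79.1 and 94.3 TPM on the ground and 64.7, 48.1 and 52.5 TPM in flight, where only the flight library of M11 lay above the lowest ground library, and the difference was -0.50 ± 0.17.

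Slow fiber genes had lower means in the flight gastrocnemius too, 5 of 10 at an unadjusted limma p under 0.05. The 10 slow fiber markers summed to 1972 to 2395 TPM in the ground and 1294 to 1532 TPM in the flight gastrocnemius, and to 1028, 2488 and 2541 TPM in the ground and 1488 to 2015 TPM in the flight quadriceps. In the gastrocnemius all 10 were lower and 3 were called: Myl2 at -1.33 ± 0.14, Myl3 at -0.90 ± 0.09 and Atp2a2 at -0.88 ± 0.10. These calls were lost without the filter on low values, without the trend in the limma fit and with the replicate number as a block, and 1 list gene was called with all 12 libraries in 1 fit. Myh7, Myl2, Tnnt1 and Tnni1, which are typical of the soleus, summed to 1077 to 1349 TPM in the ground and 675 to 853 TPM in the flight gastrocnemius. The part of fiber type in the levels of Actn2, Myoz2 and Ankrd2 was not tested.

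Fblim1 had the largest positive difference of the 10. In the gastrocnemius it was at 7.72, 8.29 and 7.98 TPM on the ground and at 14.1, 17.3 and 17.6 TPM in flight, and the groups did not overlap, with a log2 difference of 0.94 ± 0.11. In the quadriceps it was at 8.42, 9.02 and 9.58 TPM on the ground and at 9.0003, 12.3 and 11.3 TPM in flight, with overlap through M11 and a difference of 0.24 ± 0.14. The 3 macrophage markers summed to 7.15 to 9.19 TPM in the ground and 9.15 to 10.4 TPM in the flight gastrocnemius, and the 3 smooth muscle markers to 75.3 to 94.5 and 89.0 to 108 TPM. Their part in the level of Fblim1 was not tested.

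Other genes of the same functions were read from the lists. Of 28 structural Z-disc genes none was called with flight in either muscle (4 and 5 at an unadjusted limma p under 0.05), with medians of -0.04 and 0.07. The 3 that moved most in the gastrocnemius were Cryab, the chaperone alpha B-crystallin, at 620 ± 115 and 358 ± 36.7 TPM (-0.78 ± 0.14), Pdlim5, a PDZ-LIM adaptor of the Z-disc, at -0.49 ± 0.11, and Neb, the nebulin of the thin filament, at 0.27 ± 0.07. In the quadriceps they were Actn4, a non-muscle alpha-actinin, at 0.49 ± 0.18, Cryab at -0.45 ± 0.13 and Palld, an actin-bundling protein, at 0.39 ± 0.10.

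Of 18 stretch and load response genes none was called either (4 and 2 at an unadjusted limma p under 0.05), with medians of -0.10 and -0.03. Hspb7, a small heat shock protein of muscle, was at 101 ± 27.6 on the ground and 52.1 ± 7.67 TPM in flight in the gastrocnemius (-0.92 ± 0.19) and at 76.9 ± 14.1 and 42.6 ± 9.80 TPM in the quadriceps (-0.85 ± 0.20). Lmcd1, a LIM and cysteine-rich domain protein, was at -0.46 ± 0.14 and -0.31 ± 0.16, Smpx in the gastrocnemius at -0.37 ± 0.11 and Trim63, a titin-binding ubiquitin ligase, in the quadriceps at 0.45 ± 0.13. Of 16 adhesion genes none was called (2 and 1 at an unadjusted limma p under 0.05), and the widest differences were those of Zyx (0.37 ± 0.15), Vasp (0.27 ± 0.12) and Lims1 (-0.27 ± 0.10) in the gastrocnemius and Tln1 (0.44 ± 0.11), Vasp (0.34 ± 0.21) and Flna (0.33 ± 0.20) in the quadriceps. Neither the 10 genes of the YAP, TEAD and SRF axis nor the 6 of muscle damage and regeneration held a called gene in either muscle (0 and 1, and 0 and 2, at an unadjusted limma p under 0.05).

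Across the 12 libraries the members other than Xirp1 and Fblim1 formed 2 groups of like pattern. These Pearson correlations of log2(TPM + 1) describe libraries that share 6 mice and 2 muscles. They were taken on the deposited TPM, not after scaling by the median ratio. On the deposited TPM, 7091 of 10481 genes kept were lower in the ground gastrocnemius than in the ground quadriceps. The part of that scaling in these correlations, and in those with other genes below, was not tested. Actn2, Myoz2, Ankrd1 and Fblim1 were chosen on flight differences in these libraries, so correlations among them are not independent of the choice. Ankrd2 correlated with Actn2 at 0.85, with Csrp3 at 0.81, with Ankrd1 at 0.79 and with Myoz2 at 0.76. Ankrd23, Actn3 and Xirp2 correlated with each other at 0.72 to 0.84, and with Actn2 at -0.81 (Actn3), -0.47 (Ankrd23) and -0.28 (Xirp2). Xirp1 and Fblim1 correlated with each other at 0.49 and with Xirp2 at -0.61 and -0.67.

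**Figure D4:**
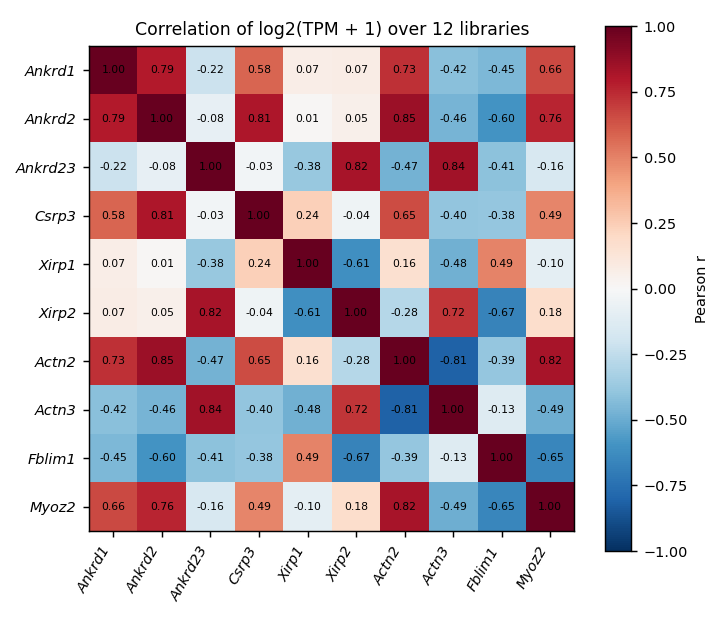
Pearson r between the 10 genes over the 12 libraries on log2(TPM + 1), blue for negative and red for positive values. Ankrd1, Ankrd2, Csrp3, Actn2 and Myoz2 form a block of positive values (0.49 to 0.85), and Ankrd23, Xirp2 and Actn3 another (0.72 to 0.84).

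Over the same 12 libraries, the genes most like Ankrd2 were Hspb7 (r = 0.92), Lmcd1 (0.90) and Myom3 (0.87), and those most like Myoz2 were Myom3 (0.96), Perm1 (0.88) and Adamtsl5 (0.87). Actn2 was most like Mybpc1 (0.94), Hspb6 (0.93) and Mb (0.91), and Ankrd1 most like Mb (0.87), Gpat3 (0.84) and Spire1 (0.84). Csrp3 was closest to Mss51 (0.84), Fbxo21 (0.83) and Cnksr1 (0.82). Ankrd23 followed Ttll7 (0.97), Cog4 (0.95) and Jph1 (0.95), Actn3 followed Snrnp27 (0.98), Stac3 (0.98) and Trip12 (0.98), and Xirp2 followed Scarb2 (0.99), Atp5j (0.99) and Cox6c (0.98). For Fblim1 they were Snrnp70 (0.93), Shisa5 (0.92) and Sipa1l3 (0.92), and for Xirp1 Unc13b (0.89), Dap (0.86) and Arhgap23 (0.84).

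The promoters of the pair with the highest correlation, Ankrd2 and Actn2, are shown from 250 bases before the RefSeq start (GRCm38.p6) to the first base of an annotated exon. Capitals mark E-box letters (CANNTG, read on both strands), which were in 66.2% of 32851 mouse promoters of the same 250 bases.
Ankrd2, chr19:42035777-42035999, plus strand: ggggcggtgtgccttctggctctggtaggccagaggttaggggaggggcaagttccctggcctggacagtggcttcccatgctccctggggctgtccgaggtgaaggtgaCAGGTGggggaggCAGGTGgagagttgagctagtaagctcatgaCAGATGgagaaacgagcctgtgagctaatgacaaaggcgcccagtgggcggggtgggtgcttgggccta
Actn2, chr13:12340761-12340982, minus strand: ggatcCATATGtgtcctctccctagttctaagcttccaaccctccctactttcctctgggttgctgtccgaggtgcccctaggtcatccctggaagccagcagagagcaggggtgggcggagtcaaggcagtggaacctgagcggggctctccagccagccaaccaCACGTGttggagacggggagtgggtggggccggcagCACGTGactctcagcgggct

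Both held 3 E-box matches and no TEAD letters (CATTCC on either strand), no MEF2 motif and no CArG box, the serum response factor motif. The TEAD letters were in 12.6% of all promoters, the MEF2 motif in 2.9% and the CArG box in 1.5%. The 8 members with an entry had 11 promoters. TEAD letters were in 3 of these 11, those of Ankrd1 (2 matches) and 1 of the 2 promoters each of Fblim1 and Ankrd23, and a MEF2 motif was in 2, those of Xirp2 and Myoz2. The matches in the members of lowest level are shown with 10 bases on each side, capitals marking the match. Positions count from the RefSeq start. GENCODE has a transcript of Ankrd1 that starts further upstream, and both Ankrd1 windows lie in its first exon, within the annotated gene.
Ankrd1, 210 bases before the RefSeq start, chr19:36120039-36120064, minus strand: cactgccaaaGGAATGaccctctcac
Ankrd1, 123 bases before the RefSeq start, chr19:36119952-36119977, minus strand: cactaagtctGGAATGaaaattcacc
Fblim1, 71 bases before the RefSeq start, chr4:141606108-141606133, minus strand: gtgagtcagaCATTCCgtgcagctca

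A match of letters is no evidence of binding, and no factor was measured on these promoters.

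The event tables hold PSI as counted from junction reads by rMATS, and a call needed a PSI difference above 5% besides an adjusted p under 0.05. Samples within a group carry no names there, so exon use could not be paired with mice or with TPM. Between the muscles, none of the 6 member events that passed the read and PSI filter was called in ground mice or in flight mice, beside 6.12% of 2044 and 4.99% of 2104 events called (2 and 3 member events had an unadjusted limma p under 0.05). Over all events, 304 of 2044 had an unadjusted limma p under 0.05 in ground mice. Xirp2 exon 2 against exon 4, a comparison of junctions and not of whole transcripts, differed most steadily. PSI was 17.9%, 17.6% and 20.03% in the ground gastrocnemius and 14.9%, 13.9% and 11.5% in the ground quadriceps, on 504 to 940 junction reads per sample. In flight mice it was 19.5%, 27.3% and 18.1% against 10.2%, 9.68% and 16.0%. The groups did not overlap in either set, with PSI differences of 5.07 and 9.64 percentage points, but the limma adjusted p-values were 0.298 and 0.132. PSI of the groups did not overlap for 19.4% of all events in ground mice and 19.6% in flight mice.

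Xirp2 exon 7 against exon 8 was not called between the muscles in either set of mice. In the ground gastrocnemius PSI was 47.4%, 52.7% and 53.1%, and in the ground quadriceps 52.6%, 48.2% and 44.3%, with a difference of 2.72 points, overlap and a limma adjusted p of 0.809. In flight mice PSI was 42.7%, 38.2% and 36.0% in the gastrocnemius and 49.9%, 50.4% and 46.8% in the quadriceps, on 613 to 1308 junction reads. These groups did not overlap, and the difference was -10.1 points with a limma adjusted p of 0.233. This contrast rests on the flight exon use that led to the choice of Xirp2, and whether the muscle difference differed between the sets was not tested.

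From ground to flight, PSI of this event differed by -12.1 percentage points in the gastrocnemius with no overlap, and in the quadriceps by 0.69 points with overlap. Of the 6 member events that passed the filter, none was called with flight in the gastrocnemius (1 at an unadjusted limma p under 0.05), where 0.378% of 2118 events were called, or in the quadriceps, where 0.0% of 2062 were (1 member event and 157 of all events at an unadjusted limma p under 0.05). The flight gastrocnemius samples had more exon 8 than exon 7 junction reads, while the other 3 groups had about as many of both.

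Exon 3 of Xirp2 against exon 5 had a higher PSI after flight in both muscles. In the gastrocnemius, PSI was 43.4%, 41.6% and 42.5% on the ground and 43.6%, 46.1% and 59.3% in flight. The flight samples lay above the ground samples, but 1 flight sample carried most of the difference of 7.16 points. In the quadriceps it was 46.7%, 47.0% and 42.4% on the ground and 54.6%, 56.8% and 49.5% in flight, again with no overlap and a difference of 8.27 points. PSI of the flight and ground groups did not overlap for 15.4% of all events in the gastrocnemius and 12.5% in the quadriceps. Exon 3 between exons 2 and 4 was included at 82.7% ± 1.51 and 82.8% ± 0.851 in the gastrocnemius and 86.4% ± 5.06 and 82.4% ± 0.683 in the quadriceps, on the ground and in flight. The quadriceps difference was -3.97 points, with 1 ground sample at 92.1%. The Xirp2 events share junctions and are not independent of each other, and PSI of their MXE events is no share of whole transcripts.

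The NMD exon of Myoz2 had a low PSI, a share of the RNA present, whose turnover was not measured. Its inclusion was 5.34%, 6.74% and 6.90% in the ground gastrocnemius, 3.55%, 3.76% and 3.57% in the flight gastrocnemius, 1.72%, 2.44% and 3.94% in the ground quadriceps and 8.57%, 7.14% and 4.88% in the flight quadriceps. The groups of the muscles did not overlap, the gastrocnemius being higher in ground mice and lower in flight mice. The differences of 3.63 and -3.24 points had limma adjusted p-values of 0.314 and 0.464, and they rested on 2 to 14 inclusion junction reads per sample. Exon 3 of Myoz2 was included at 91.7% to 100% in all samples, and the MXE form of the NMD exon against exon 3 at 0% to 5.15%, on 0 to 7 inclusion reads.

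**Figure D5:**
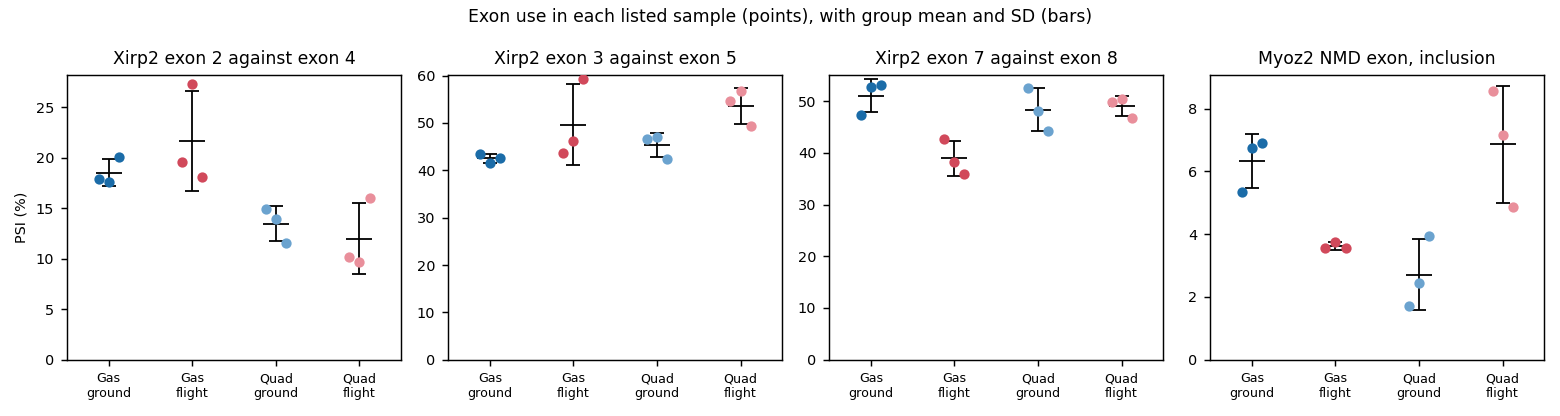
PSI of 4 events in each listed sample (points) with group mean and SD (bars, n = 3), each panel on its own axis from 0: Xirp2 exon 2 against exon 4, exon 3 against exon 5 and exon 7 against exon 8, and inclusion of the Myoz2 NMD exon. Exon 7 of Xirp2 lies at 36.0% to 42.7% in the flight gastrocnemius and at 44.3% to 53.1% in the other groups.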

How the data were processed

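TPM values were deposited by the authors, who mapped reads with kallisto 0.46.0 and summarised them per gene with tximport, and junction counts per event came from the authors' rMATS-turbo run on STAR 2.7.1a alignments to mm10 (GRCm38). DESeq2 1.26.0 is also named in the submitters' notes and was not used here. Columns of the authors' own comparisons (p-values, FDR, differences in inclusion level) were not used. Single-end poly(A) libraries of 12 muscles from 6 mice were grouped by muscle and flight. The TPM carry no depth, so precision was read from the spread of 3 libraries per group. TPM sums ran from 923295 to 966638, and member events had 30 to 2189 junction reads per sample.

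Genes with TPM above 5 in at least 1 library (10481 of 36008) were tested on log2(TPM + 1) with limma 3.58.1 in R 4.3.3 (mean-variance trend, moderated by empirical Bayes), each comparison fitted on its own 6 libraries, and called at Benjamini-Hochberg adjusted p under 0.05 and above 1.5-fold. Fold changes on this scale understate changes of low genes. Events with a mean above 10 junction reads in both groups, and not at 5% or less or 95% or more in all samples, were tested with limma on the log2 ratio of length-scaled junction reads with 0.5 reads added. Both fits were tested on simulated data. Intervals are 95% intervals of the fits. Figures were drawn with Python 3.11.15 and matplotlib 3.10.9. Exon numbers follow GENCODE, and promoters come from RefSeq.

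The members and gene lists were chosen with earlier results of these data known. All members were named, with up to 4 called genes per list by adjusted p, for flight up to 3 genes in each of 3 lists by absolute log2 difference, and per member the 3 genes of highest correlation. Alternatives were the pseudocount, the filter, median ratio scaling, no trend, 1 fit over all libraries, mouse as a replicate block, other event filters and weights, and leaving out each library. Both muscles came from the same mice: deviations of the 2 libraries of a mouse correlated at -0.12 to 0.33, and those of different mice at -0.32 to 0.18. Mice are biological replicates, but each gave 1 library per muscle.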

Additional observations from a re-analysis of the deposited data

Results flagged for a closer look

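The difference between gastrocnemius and quadriceps in Fblim1 went opposite ways in ground and flight mice on the deposited TPM: each ground gastrocnemius (7.72 to 8.29 TPM) lay below each ground quadriceps (8.42 to 9.58 TPM), and each flight gastrocnemius (14.1 to 17.6 TPM) above each flight quadriceps (9.0003 to 12.3 TPM). The gastrocnemius minus quadriceps difference was -0.15 in ground and 0.55 in flight mice, a signed change of 0.70 on the log2 scale. After scaling by the median ratio the ground difference was -0.041 and the ground muscles overlapped (8.24 to 8.49 in the gastrocnemius, 8.07 to 9.14 in the quadriceps), so the opposite separation was lost on that scale, while the flight muscles stayed apart (0.66). Groups that did not overlap in opposite directions were found for 0.277% of all genes kept. In a limma fit over all 12 libraries this change did not pass, with an adjusted p of 0.927, or 0.520 with mouse as a block, and no gene passed in either fit (363 and 534 at an unadjusted p under 0.05). Fblim1 was chosen on the flight gastrocnemius, so these are not independent of the choice.

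Inclusion of the Myoz2 NMD exon also separated the muscles in opposite directions, higher in the gastrocnemius of ground mice (5.34% to 6.90% against 1.72% to 3.94%) and lower in that of flight mice (3.55% to 3.76% against 4.88% to 8.57%). The muscle difference changed by -6.86 percentage points from ground to flight. The same pattern was found for 0.56% of 2320 events. The values rest on 2 to 14 inclusion junction reads per sample, and the difference was not tested.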

How the results depend on the processing

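The 1 member called between the muscles in ground mice became 0 without the filter on low values, 0 without the trend and 0 to 0 with any 1 library left out, and the 1 called in flight mice became 0 without the filter, 0 with median ratio scaling, 0 without the trend, 0 with the replicate block and 0 to 2 with 1 library left out (2 without the gastrocnemius of M11, Ankrd23 and Xirp2). The 1 called with flight in the gastrocnemius became 0 without the filter, 0 without the trend, 0 with the replicate block (here the replicate number, which pairs different mice and so is no true pairing) and 0 to 1 with 1 library left out, and no member was called in the quadriceps and no member event in any comparison under any setting. Pathway list genes called between the muscles numbered 4 in ground mice (0 without the filter, 2 with median ratio scaling, 2 without the trend, 0 to 5 with 1 library left out) and 5 in flight mice (0 without the filter, 3 without the trend, 0 to 7 with 1 library left out), and 3 with flight in the gastrocnemius (0 without the filter, 0 without the trend, 0 with the replicate block, 1 with all 12 libraries in 1 fit, 0 to 4 with 1 library left out). Among all genes, the 232 calls between muscles in ground mice became 57 without the filter, 149 with a pseudocount of 5, 109 with median ratio scaling, 139 without the trend and 0 to 220 with 1 library left out (0 without the gastrocnemius of M02), the 174 in flight mice became 10, 138, 56, 59 and 12 to 280, with 320 over all 12 libraries in 1 fit, and the 24 with flight in the gastrocnemius became 4 without the filter, 5 without the trend, 0 with the replicate block and 1 to 133. Signs turned for Ankrd1 between muscles in ground mice (0.0496 with median ratio scaling, and -0.25 to 0.23 with 1 library left out), and in flight mice with 1 library left out for Ankrd2 (-0.13 to 0.60), Csrp3 (-0.13 to 0.28) and Xirp2 exon 3 skipping (-0.0036 to 0.083). Flight differences that were not called also crossed 0 with 1 library left out for Csrp3 in the quadriceps (-0.51 to 0.21), Xirp1 in the gastrocnemius (-0.04 to 0.52), Xirp2 exon 3 skipping in the gastrocnemius (-0.07 to 0.08) and Xirp2 exon 7 or 8 in the quadriceps (-0.08 to 0.16). The cause of these changes was not tested. The replicate block changed no other member's call. Mean levels of Ankrd1 under 10 TPM and of the Myoz2 NMD exon with few reads limit both.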
